A study of Mus musculus with 18 samples.

Results

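The glutathione transferases and glutathione peroxidases described here are 9 mouse genes: the transferases Gsta4, Gsto1, Gstm1, Gstm2 and Gstp1, and the peroxidases Gpx1, Gpx2, Gpx3 and Gpx4. They were taken by name, out of 26344 genes without the mitochondrial ones that all 12 tables of unique molecular identifiers (UMIs, counts of single captured RNA molecules) list, and all 9 were measured in every library. In the cells of the mouse urinary bladder they divided between the urothelium, the epithelium that faces the urine, and the cells beneath it. Among named classes of at least 20 cells, Gsta4, Gsto1, Gstm1 and Gpx2 were highest in urothelial-like cells in most or all whole-bladder libraries. Gstm2 and Gpx3 were so in fibroblast-like cells, and Gpx1 in macrophage-like or dendritic-like cells. Gstp1 was higher in urothelial-like than in fibroblast-like cells by a smaller gap, and Gpx4 was broad. Few cells of these libraries were named smooth muscle. In tissue sections Gpx1, Gpx3 and Gpx4 were on average highest in muscle-rich spots.

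The transferases join glutathione, a small thiol peptide, to reactive compounds so that a cell can neutralise and export them, and Gsta4 is known for acting on aldehydes that form when lipids are oxidised. The peroxidases use glutathione to reduce peroxides: Gpx1 is the common cytosolic form, Gpx2 the form of epithelia, Gpx3 is secreted, and Gpx4 reduces lipid peroxides within membranes. Several of these genes are targets of the transcription factor Nrf2, which binds the antioxidant response element.

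All mice were C57BL/6, and the labels name no transgene and no treatment for any group. Whole-bladder cells were read in 5 libraries: aged males (22 months, 3 pooled), young males (3 months, 3 pooled), both sexes at 12 months (2 libraries, each pooling 2 females with 2 males) and both sexes at 24 months (pooled likewise). Nuclei were read in 1 library of both sexes at 12 months, pooled likewise. Cells of the detrusor, the muscle wall, were read alone (3 pooled females, 14 months) and in an enriched preparation that pooled both sexes (2 of each, 14 months). There were 4 Visium sections, in which RNA is captured on spots under a tissue slice, of male bladders, 2 at 22 months and 2 at 14 months. Bulk RNA was read from intact tissue (3 libraries) and from bladders dissociated into cells (3 libraries) of females at 12 months, 3 pooled in each library. Animals were pooled, and the labels do not say that libraries of a group came from separate animals, so p-values measure the spread between these libraries, which may be technical.

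Median UMIs per barcode were 1837 and 2524.5 in the 2 male cell libraries, 9893 to 15042 in the 3 of mixed sex, 1126.5 in nuclei and 14003 to 16622 per spot in the sections. Bulk libraries held 23083752 to 68760791 reads. Levels are given as CPM, counts of a gene scaled to the same total in each library, class or kind of spot. UMI counts are not divided by gene length, and in bulk a long gene gives more reads, so bulk levels compare a gene between samples and not 1 gene with another. Cell classes are called "like" the type whose marker genes they carried. Urothelial-like cells held the 10 urothelial markers (uroplakins, keratins and junction genes) at 12650 to 22390 CPM summed, against 409 to 1290 CPM in fibroblast-like cells. The 10 fibroblast markers stood at 27670 to 63460 CPM in fibroblast-like cells and 80.4 to 2781 CPM in urothelial-like cells. These classes held 690 to 2100 urothelial-like and 142 to 4395 fibroblast-like cells a library. At most 64 cell barcodes (1.00% of the smaller table) were shared by 2 tables, the 2 male ones.

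The promoters of 5 genes, each from 250 bases before to 50 bases after an annotated start, are printed because these genes divided clearly and their values carry the account below: Gstm1, Gsto1 and Gpx2 were high in urothelial-like cells, and Gstm2 and Gpx3 in fibroblast-like cells. Gstm1 (chr3:108012250-108017973) and Gstm2 (chr3:107981702-107986420) are neighbours on chromosome 3, so that neighbouring genes of 1 family are shown side by side. The sequences are RefSeq's, on build GRCm38.p6, each in the sense of its gene, and capitals mark a GC box (GGGCGG, or its complement on the other strand) or a TATA box (TATAAA).
Gstm1 (chr3:108017769-108018068, - strand): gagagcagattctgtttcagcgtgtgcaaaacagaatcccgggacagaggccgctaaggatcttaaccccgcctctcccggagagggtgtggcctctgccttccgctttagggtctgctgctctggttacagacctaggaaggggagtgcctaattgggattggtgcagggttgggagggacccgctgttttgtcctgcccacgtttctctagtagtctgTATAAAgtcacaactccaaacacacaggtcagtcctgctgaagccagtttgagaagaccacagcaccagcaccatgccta
Gsto1 (chr19:47854723-47855022, + strand): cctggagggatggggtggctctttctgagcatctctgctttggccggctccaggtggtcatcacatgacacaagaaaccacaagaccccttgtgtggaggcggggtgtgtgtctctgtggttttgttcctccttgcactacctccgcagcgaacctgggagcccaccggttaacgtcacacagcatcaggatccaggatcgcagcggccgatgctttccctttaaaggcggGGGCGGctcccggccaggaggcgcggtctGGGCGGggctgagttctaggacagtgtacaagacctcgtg
Gpx2 (chr12:76795505-76795804, - strand): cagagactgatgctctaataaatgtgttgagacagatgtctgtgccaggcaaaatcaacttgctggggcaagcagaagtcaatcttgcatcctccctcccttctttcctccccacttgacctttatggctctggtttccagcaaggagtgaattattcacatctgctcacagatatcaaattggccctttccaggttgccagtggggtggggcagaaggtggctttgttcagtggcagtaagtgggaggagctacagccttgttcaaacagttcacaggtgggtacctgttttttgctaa
Gstm2 (chr3:107986371-107986670, - strand): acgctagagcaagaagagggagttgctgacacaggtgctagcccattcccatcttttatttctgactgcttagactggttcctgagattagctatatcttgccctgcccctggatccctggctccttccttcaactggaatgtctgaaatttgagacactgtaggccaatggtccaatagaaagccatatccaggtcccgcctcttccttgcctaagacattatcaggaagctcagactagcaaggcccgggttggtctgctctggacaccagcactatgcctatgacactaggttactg
Gpx3 (chr11:54902604-54902903, + strand): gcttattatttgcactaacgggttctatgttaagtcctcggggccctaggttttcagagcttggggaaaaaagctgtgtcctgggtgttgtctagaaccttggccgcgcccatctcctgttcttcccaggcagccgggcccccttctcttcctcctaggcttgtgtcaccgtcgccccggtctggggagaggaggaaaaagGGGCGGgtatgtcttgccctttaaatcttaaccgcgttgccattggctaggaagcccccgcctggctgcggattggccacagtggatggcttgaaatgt
The Gstm1 window printed is the second of 2, with TATAAA starting 30 bases before the start, which none of the other 11 windows of these genes held and 13.57% of 32544 promoter windows of this length did. Gpx3 held 1 GC box, starting 49 bases before the start, and Gsto1 held 2, whereas Gstm1, Gstm2 and Gpx2 held none. A GC box was present in 35.88% of all windows. The core of the antioxidant response element (TGACNNNGC, on either strand) was in none of the 12 windows that 8 of the 9 genes have, against 12.41% of all windows. Only these letters were searched, so variant forms of the element, in Gstp1 or any other window, are not covered. Matches of different motifs did not overlap, and 2 of the 4 Gpx4 windows overlap and share their GC boxes. No window of Gsta4 (chr9:78191966-78209349) was analysed here. The others lie at chr19:47854973-47864790 (Gsto1), chr19:4035411-4037912 (Gstp1), chr9:108339080-108340342 (Gpx1), chr12:76792335-76795554 (Gpx2), chr11:54902854-54910387 (Gpx3) and chr10:80047166-80056439 (Gpx4), and all 9 are protein-coding.

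Urothelial-like and fibroblast-like cells were compared within each of the 5 whole-bladder libraries, to see which of the 2 largest named classes carries each gene. Of 11476 genes tested, 66.8% passed an adjusted p of 0.05 (36.2% higher and 30.6% lower in urothelial-like cells). Among the 9 genes 5 were higher, 3 were lower and Gpx4 did not pass, so a call alone was common here and the sizes carry the description. Their median log2 difference was 1.29, the value of Gstp1, against 0.11 over all genes tested. The genes were chosen with earlier results of these data known, so such medians describe the 9 genes and test nothing. Library order in the values that follow is 22-month male, 3-month male, the first and the second 12-month library of mixed sex, and 24-month mixed sex.

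Gstm1, a mu-class transferase, stood at 58310, 69640, 35830, 30160 and 31560 CPM in urothelial-like cells, and at 3101, 4689, 4103, 2970 and 3280 CPM in fibroblast-like cells. None of the 26344 genes had more UMIs in urothelial-like cells of any of the 5 libraries, where Gstm1 made up 3.02% to 6.96% of the counts. The log2 difference was 3.93 (SE 0.11, n = 5 libraries, edgeR adjusted p = 2.66e-07), and the classes did not overlap, as was the case for 38.1% of genes. Both male libraries lay above the 3 mixed-sex ones in urothelial-like cells. Summed, the 9 genes were 4.05% to 8.64% of urothelial UMIs and 0.635% to 1.12% of fibroblast UMIs, with the 5 transferases making up nearly all of the urothelial share.

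Gsta4 stood at 12260, 12350, 7379, 6708 and 7512 CPM in urothelial-like cells, and at 296.3, 292.8, 608.7, 441.9 and 528.5 CPM in fibroblast-like cells. The log2 difference was 4.79 (SE 0.30, n = 5, edgeR adjusted p = 2.80e-05). Gsto1, an omega-class transferase that also reduces oxidised ascorbate, stood at 2977, 2175, 1820, 1872 and 1893 CPM against 97.7, 100.1, 176.3, 180.6 and 145 CPM. It was higher by 4.33 (SE 0.20, edgeR adjusted p = 1.55e-06). Gpx2 was far less abundant, at 91.2, 150, 78.8, 77.5 and 84.7 CPM in urothelial-like cells and 2.24, 3.70, 6.47, 8.97 and 7.20 CPM in fibroblast-like cells. Its log2 difference was 4.67 (SE 0.30, edgeR adjusted p = 4.78e-06). None of these 3 genes overlapped between the classes in any pair of libraries. The gap between the classes was wider in the male than in the mixed-sex libraries for Gsta4, Gsto1, Gstm1 and Gpx2 by a test added after the values were seen, which called 4.34% of all genes.

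**Figure D1:**
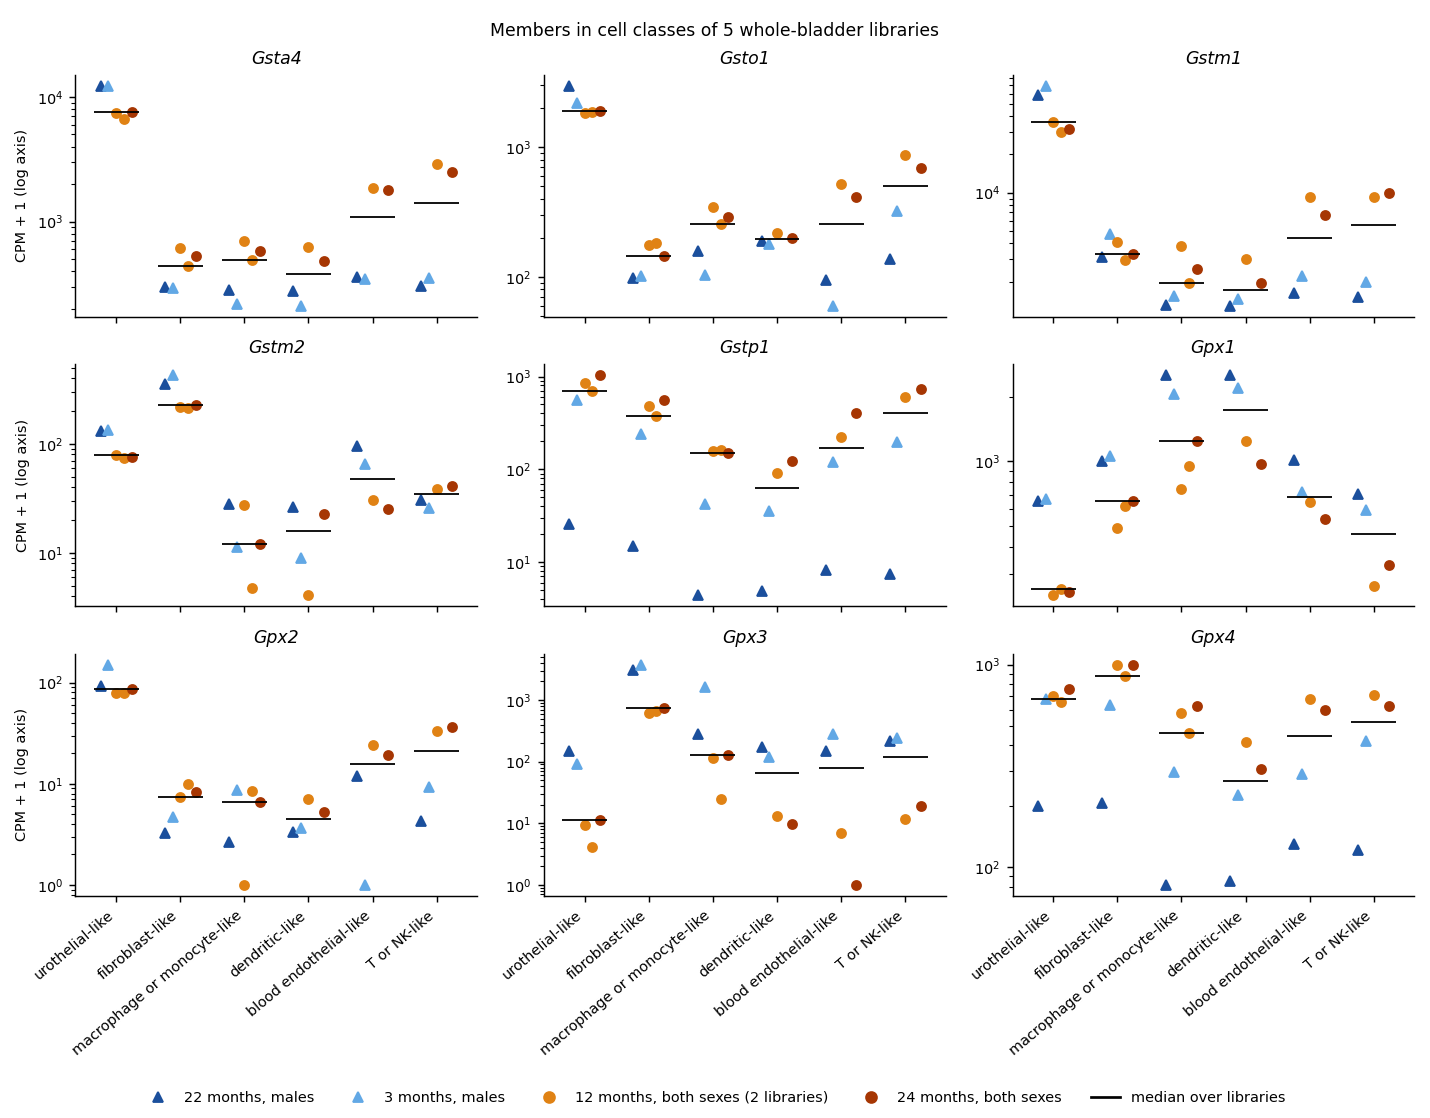
Level of each of the 9 genes (CPM + 1, log axis) by cell class, with the median over libraries as a bar; each point is 1 whole-bladder library with at least 20 cells of the class. Gsta4, Gsto1, Gstm1 and Gpx2 sit highest in urothelial-like cells, Gpx3 and Gstm2 in fibroblast-like cells, and Gpx1 in macrophage-like and dendritic-like cells.

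The level of these genes in fibroblast-like cells was set beside that of the uroplakins, the plaque proteins of the urothelial surface. Summed over 4 uroplakins, their level in fibroblast-like cells was 1.88% and 1.89% of the urothelial level in the male libraries and 7.88%, 8.22% and 6.86% in the mixed-sex libraries. Gsta4 stood at 2.42%, 2.37%, 8.25%, 6.59% and 7.04% of its urothelial level in the same cells, and Gpx2 at 2.46%, 2.47%, 8.2%, 11.6% and 8.5%. Gsto1, at 3.28%, 4.6%, 9.69%, 9.65% and 7.66%, and Gstm1, at 5.32%, 6.73%, 11.5%, 9.85% and 10.4%, were above the summed uroplakins in all 5 libraries, as was Gpx2. Gsta4 was above the sum in 4 libraries and below it in the second 12-month library. Single urothelial markers spread around the sum, and Upk1b, at 2.49%, 2.51%, 8.08%, 14.2% and 8.23%, was above Gsta4 and Gpx2 in both male libraries and above all 4 genes in the second 12-month library. Upk2 was above Gpx2 in the 22-month male (2.56%) and the first 12-month library (9.15%), and in the latter Cdh1, a junction protein of epithelia (11.6%), was above all 4. The part of free urothelial RNA in these levels was not tested.

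The detrusor-only library, from females of 14 months and without a urothelial-like class, was prepared differently and is not compared by a test. Its fibroblast-like cells held the urothelial markers at 0.865 CPM summed. There Gstm1 was at 648.2 CPM in fibroblast-like cells (95% Poisson interval 638.6 to 658.0, which covers counting error only, as do those below), at 109.3 CPM in macrophage-like and at 105.7 CPM in blood-endothelial-like cells. Gsta4 was at 24.2 CPM (22.3 to 26.1) in fibroblast-like cells and at 251.1 CPM (230.7 to 272.7) in mesothelial-like cells, which line the outer surface. Gsto1 was at 20.7 CPM (19.0 to 22.5) in fibroblast-like cells and Gpx2 at 0.226 CPM (0.0828 to 0.491), from 6 UMIs. In this library Gstm1 was the highest of these 4 genes in fibroblast-like cells and Gpx2 the lowest.

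**Figure D2:**
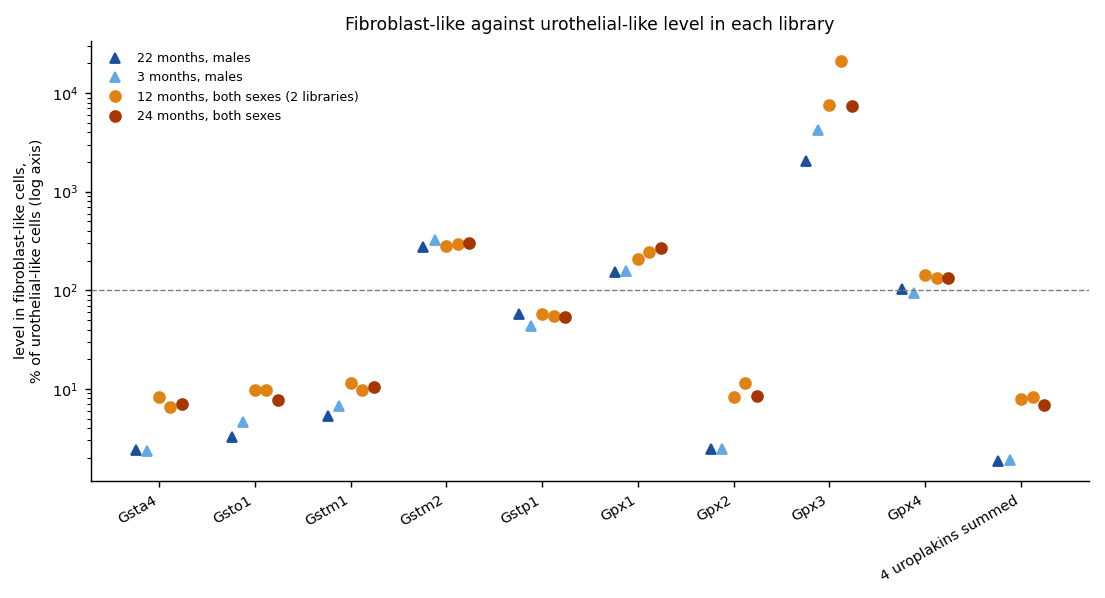
Level in fibroblast-like cells as a percent of the level in urothelial-like cells of the same library (log axis), for 4 uroplakins summed and for each gene; each point is 1 library. In the 5 whole-bladder libraries Gpx2, Gsto1 and Gstm1 lie above the uroplakin sum, Gsta4 in 4 of them, though single uroplakins reach 14.2%, and Gstm2, Gpx1 and Gpx3 lie above 100%.

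Gstp1, the pi-class transferase, was also higher in urothelial-like cells but without the wide gap of the 3 above. Its levels there were 24.4, 558.4, 851.4, 695.4 and 1036 CPM, against 14.0, 241.8, 484.2, 376.9 and 556.8 CPM in fibroblast-like cells. Within every library the urothelial value was the higher one, though the classes overlapped across libraries. The log2 difference was 1.29 (SE 0.098, n = 5, edgeR adjusted p = 4.93e-06), and without the library as a block the same difference was 1.38 with an adjusted p = 0.255. The 22-month male library stood apart for Gstp1 in both classes, and Gstp2, a near-identical neighbour gene, was at 0 CPM in its fibroblast-like cells. Without that library the log2 difference was 1.27. How reads were split between Gstp1 and its copies, or among the mu-class genes, is uncertain in all tables.

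Gstm2, the neighbour of Gstm1, showed the opposite pattern. It stood at 129.1, 132.5, 77.8, 72.7 and 74.6 CPM in urothelial-like cells and at 355.9, 427.5, 216.9, 212 and 227.6 CPM in fibroblast-like cells, a log2 difference of -1.20 (SE 0.11, n = 5, edgeR adjusted p = 1.42e-05). The classes did not overlap. In the detrusor-only library Gstm2 was at 166 CPM in fibroblast-like, 176.9 in mesothelial-like and 140.7 in pericyte-like cells, but at 2.19 CPM in macrophage-like and 1.1 CPM, from 1 UMI, in lymphatic-endothelial-like cells.

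Fibroblast-like cells held Gpx3, the secreted peroxidase, at 3061, 3768, 623, 660.6 and 741.2 CPM, and urothelial-like cells at 149.4, 89.0, 8.22, 3.11 and 10.1 CPM. The log2 difference was -5.57 (SE 0.46, n = 5, edgeR adjusted p = 9.84e-05) without overlap. Both male libraries lay above the mixed-sex ones in both classes; these libraries also differ in age, depth and counted gene list. Among clusters of fibroblast-like cells, which were made without these genes, Gpx3 ranged from 398.8 to 11580 CPM in the 22-month male library, from 2127 to 16860 CPM in the 3-month male library, from 137.6 to 4168 CPM in the 24-month library and from 71.1 to 1039 CPM in the detrusor-only library. The 2 clusters of each 12-month library were closer, at 334.3 and 929.1 CPM in the first and 652.7 and 677.3 CPM in the second. In the 22-month male library the highest cluster was led by Sult1e1, Cxcl13 and Penk. In the detrusor-only and detrusor-enriched libraries Gpx3 was at 404.6 and 352 CPM in fibroblast-like cells, at 328.8 and 531.8 CPM in mesothelial-like cells and at 311.7 and 383.8 CPM in pericyte-like cells, the contractile cells around small vessels.

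Gpx1 was lower in urothelial-like cells, at 652.7, 665.1, 237, 252.7 and 245.9 CPM, than in fibroblast-like cells, at 1000, 1055, 486.7, 620.3 and 656 CPM. The log2 difference was -0.64 (SE 0.091, n = 5, edgeR adjusted p = 0.00023), with the fibroblast value higher in each of the 5 libraries and an overlap between libraries; without the library block the adjusted p was 0.0529. Gpx4, the membrane peroxidase, stood at 199, 675.8, 699.8, 655.1 and 758.2 CPM in urothelial-like cells and at 205.8, 629.6, 997.6, 876 and 999.6 CPM in fibroblast-like cells. It did not pass the test (log2 difference 0.11, SE 0.076, edgeR adjusted p = 0.24), and with counts scaled by library size alone the difference was -0.26. That scaling moved the median of all genes from 0.11 to -0.24 and the share of called genes that were higher from 54.2% to 36.8%; it turned no other of the 9. The 22-month male library was the lowest for Gpx4 in both classes, and without it the difference was 0.014.

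Macrophages and monocytes clear debris and make peroxide themselves, and their class was compared with fibroblast-like cells in the same 5 libraries. Of 7873 genes tested 44.5% were called (21.4% higher and 23.1% lower), and of the 8 genes that passed the filter on low counts 3 were higher and 4 lower. Gpx1 was at 2515, 2054, 742.7, 954.2 and 1246 CPM in macrophage-like cells, higher by 1.38 (SE 0.22, edgeR adjusted p = 0.00031) and above the fibroblast level of its library each time. Dendritic-like cells, present in 4 libraries, were alike at 968.9 to 2516 CPM. In the detrusor-only library Gpx1 was at 1154 CPM in macrophage-like and 450.5 CPM in fibroblast-like cells. One or the other of these immune classes was the highest of the named classes for Gpx1 in each of the 5 libraries.

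Gsto1 was also higher in macrophage-like cells: 158.2, 102.4, 341.8, 253.3 and 289.2 CPM, higher than in fibroblast-like cells by 1.12 (SE 0.17, edgeR adjusted p = 0.00026). That is 4.71% to 18.8% of the urothelial level, against 1.83% to 10.0% for the uroplakins. In the detrusor-only library the order was not repeated, at 14.2 CPM (10.1 to 19.5) in macrophage-like and 20.7 CPM in fibroblast-like cells. Gstm2 (-3.83), Gpx3 (-2.33), Gstp1 (-1.39) and Gpx4 (-0.49) were lower in macrophage-like cells, of which only Gstm2 did not overlap between the classes, as 34.1% of genes did not. The calls of Gsta4 (0.48, adjusted p = 0.0329) and Gpx4 (adjusted p = 0.0336) were lost in 13 and 10 of 18 alternatives, and Gpx3 gave -1.64 (adjusted p = 0.259) in the male libraries alone, where the 3-month macrophage-like cells held 1608 CPM. Without the library block Gstp1 and Gpx3 did not pass (adjusted p = 0.33 and 0.318). Gstm1, at -0.31 (adjusted p = 0.23), was called lower in the male libraries alone (-0.74, adjusted p = 0.0191) and with library size alone (-0.80, adjusted p = 0.0076). Scaling by library size alone moved the median of all genes from -0.01 to -0.55, the share of calls that were higher from 48.1% to 23.0%, and Gsta4 to -0.02.

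Blood-endothelial-like cells, present in 4 libraries, were lower than fibroblast-like cells in Gpx3 (-4.71), Gstm2 (-2.68), Gstp1 (-1.0) and Gpx4 (-0.91), where 30.7% of 8933 genes were called (12.8% higher and 17.9% lower). The edgeR adjusted p of these 4 ranged from 1.12e-07 to 0.0012, and only Gpx3 and Gstm2 did not overlap between the classes (26.1% of genes). Without the library block Gstp1, Gpx4 and Gpx3 lost their calls (adjusted p = 0.712, 0.413 and 0.0516). Gsta4 was called higher, by 0.86 (SE 0.27, edgeR adjusted p = 0.0312), from 357.1 and 347.6 CPM in the male and 1860 and 1800 CPM in the first 12-month and the 24-month library. In those 2 libraries the class held 24 and 25 cells that carried 26.9% and 21.95% of the urothelial uroplakin level. In the male libraries alone the difference was 0.093 (adjusted p = 0.866). That call was lost in 8 of 17 alternatives. Gstm1 was not called over the 4 libraries (-0.08, edgeR adjusted p = 0.937), but was called lower in the male libraries alone (-1.17, adjusted p = 3.01e-05) and higher in the mixed-sex ones alone (1.06, adjusted p = 9.14e-06). Gsto1 was not called over the 4 (0.58, adjusted p = 0.309) nor in the male libraries alone (-0.53, adjusted p = 0.335), but was called higher in the mixed-sex ones alone (1.5), with doublets kept (1.07) and from 1000 UMIs (0.86), with adjusted p of 0.00016, 0.00021 and 0.0177. Scaling by library size alone moved the median of all genes from -0.13 to 0.01.

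Among urothelial-like cells some of the genes differed between the cluster highest in uroplakins and the cluster highest in the basal keratins Krt5 and Krt15. The place of these clusters in the tissue was not measured. These are values of clusters within a library, given without a test. Gsto1 fell from the keratin-high to the uroplakin-high cluster in the first 12-month (2656 to 1004 CPM), the second 12-month (3329 to 1005 CPM) and the 24-month library (2637 to 995.2 CPM), and was 3321 against 2704 CPM and 2306 against 2146 CPM in the male libraries. Gstm1 was higher in the uroplakin-high cluster of each library, by 1.97, 1.14, 1.56, 1.48 and 1.1 times in the order first 12-month, second 12-month, 22-month male, 24-month and 3-month male. Gpx1 was lower there in each, at 0.58, 0.66, 0.84, 0.59 and 0.91 times the keratin-high cluster. In the first 12-month library Gstp1, Gpx2 and Gpx4 were lower there too, at 0.52, 0.57 and 0.68 times. Gsta4, Gstm2 and Gpx3 stood at 1.04, 1.15 and 1.3 times in that library. The keratins separated these clusters poorly in the male libraries, at 0.710 and 0.821 times, against 0.147 to 0.195 times in the others.

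Over the named classes with at least 20 cells of each whole-bladder library, Gstm1 was highest in urothelial-like cells in 5 of 5 libraries, and Gsta4, Gsto1, Gstp1 and Gpx2 in 4 of 5. The exception for these 4 was the second 12-month library, where a cluster of 50 cells led by Acta2 and Tagln was higher (6827 against 6708 CPM for Gsta4). That cluster held the urothelial markers at 12910 CPM and the smooth muscle markers at 964 CPM, so it is not called smooth muscle here. Gpx3 was highest in fibroblast-like cells in 5 of 5 libraries, Gstm2 in 4 of 5 (mesothelial-like cells were higher in the 22-month male library, at 383 CPM), and Gpx4 in 3 of 5. Among smaller named classes, 11 mesothelial-like cells of the first 12-month library held Gpx3 at 1022 CPM (844 to 1227, from 115 UMIs), above the 623 CPM of its fibroblast-like cells. Clusters left unnamed were above every named class in 2 cases. In the 22-month male library 1529 unnamed cells, summed, held Gstm2 at 583.6 CPM. Of these, 1431 formed a cluster led by smooth muscle and fibroblast genes, and 98 a cluster led by smooth muscle and pericyte genes. In the first 12-month library 38 unnamed cells held Gpx1 at 1881 CPM. In the detrusor-enriched library 388 urothelial-like cells held Gstm1 at 17990 CPM, Gsta4 at 5487 CPM and Gsto1 at 998.6 CPM, each the highest of that library's classes. In the 2 detrusor libraries Gpx4 was highest in Schwann-like cells, the glia of nerves, at 930.3 and 823.3 CPM.

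Genes that work beside the 9 were taken from 6 lists: other transferases, other peroxidases, glutathione synthesis and turnover, selenoprotein synthesis and supply, thioredoxins and peroxiredoxins, and superoxide dismutases with other Nrf2 targets. Of 69 listed genes tested between urothelial-like and fibroblast-like cells, 43 were higher and 15 lower, with a median log2 difference of 0.76 against 0.11 over all genes, of which 36.2% were higher and 30.6% lower. Among the other transferases 14 of 19 were higher, led by Gsta2 (4.97), Gsta1 (4.82) and the membrane-bound Mgst3 (4.40), while 3 were lower. Both other peroxidases tested, Gpx7 (-5.30) and Gpx8 (-1.62), were lower. Of 10 genes that make or turn over glutathione 6 were higher and 2 lower, of which Anpep, a peptidase that trims glutathione breakdown products, fell furthest (-5.63). Of 15 thioredoxin and peroxiredoxin genes 10 were higher and 3 lower, and of 8 genes of selenoprotein synthesis and supply 3 were higher, a share near that over all genes, and 1 lower. Of 15 superoxide dismutase and other Nrf2 target genes 10 were higher and 4 lower, with a median of 1.49, and the secreted superoxide dismutase Sod3 (-4.64) was among the lower ones.

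In macrophage-like cells 15 of 60 listed genes were higher and 12 lower than in fibroblast-like cells, shares near those over all genes (21.4% and 23.1%). By list, 8 of 15 superoxide dismutase and other Nrf2 target genes were higher and 3 lower (median 0.82), and 2 of 12 other transferases were higher and 6 lower (median -0.84). Both other peroxidases were lower. Of 15 thioredoxin and peroxiredoxin genes 3 were higher and 1 lower, of 9 glutathione synthesis and turnover genes 2 were higher, and none of 7 selenoprotein genes was called. Among the higher ones were Hpgds, the transferase that makes prostaglandin D (7.60), the cystine carrier Slc7a11 (5.07) and Hmox1, which breaks down haem (2.89). Lower were Gpx8 (-3.96), Gstt1 (-3.77) and Sod3 (-3.46). In blood-endothelial-like cells, where 12.8% of all genes were higher and 17.9% lower, 3 of 59 were higher, namely Mgst3 (1.22), Ggct (1.18) and Sod1 (0.89), and 15 were lower, Sod3 (-3.85), Gpx8 (-3.80) and Gstt1 (-2.50) the most.

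Patterns were compared by Pearson's r on log2(CPM + 1), centred for each gene within its library, over 37 class-by-library sums of the 5 whole-bladder libraries. The pattern most like Gsta4 was that of Igfbp2, a binding protein of insulin-like growth factors (r = 0.986). Next were Gstm1 (0.965) and Sptssb (0.964). Gsto1 was closest to Igfbp2 (0.944) and Gsta4 (0.937), Gstm1 to Gsta4 and Sptssb (0.961), and Gpx2 to Lypd3 (0.885). Gstm2 was closest to Gpx8 (0.889) and Gpx3 to the protease Ctsk (0.853). Gpx1 was closest to Rab7b (0.850), Gstp1 to Pebp1 (0.870) and Gpx4 to Map1lc3a (0.875). The sums share libraries, depth and free RNA, and likeness was ranked over 8596 genes. Between the 2 neighbours Gstm1 and Gstm2 r was 0.456, and between Gstm1 and Gpx3 -0.373.

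Nuclei hold RNA that is new or kept from export, and the library of nuclei was set against the 5 cell libraries within 2 classes. With a single nuclei library, its spread is assumed to equal that of the cell libraries. Only the 12-month cell libraries match its age and sex mix. Preparation and the counted gene list (31053 genes, against 27775 or 27998 in the cell tables) cannot be told apart from the kind of particle. In urothelial-like nuclei 6 of the 9 genes were called lower and none higher, where 35.1% of 13253 genes were called (16% higher and 19.1% lower). For 8 of the 9 the nuclei lay below all cell libraries, and 74.3% of genes lay outside the cell libraries. Their median log2 difference was -3.35, against -0.03 over all genes tested.

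Gstm1 was at 9030 CPM (95% Poisson interval 8907 to 9155) in urothelial-like nuclei, below all 5 cell libraries (lowest 30160 CPM), and ranked 3 among all genes at 0.903% of counts. Gsta4 was at 2173 CPM (2113 to 2235) against 6708 CPM in the lowest cell library, and Gsto1 at 344.2 CPM (320.6 to 369.2) against 1820 CPM. The log2 differences were -3.41 for Gstm1, -3.20 for Gsta4 and -3.79 for Gsto1 (edgeR adjusted p = 0.0026, 0.0019 and 0.0018). Gstm2 (-3.17), Gpx1 (-3.29) and Gpx2 (-3.35) were also lower. Gpx4 (-2.93, adjusted p = 0.0587), Gstp1 (-6.56, adjusted p = 0.0842) and Gpx3 (-3.40, adjusted p = 0.295) did not pass.

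Gstp1 was at 16.7 CPM (11.8 to 22.9) in urothelial-like nuclei. The detrusor-enriched cell table lists as many genes as that of the nuclei (31053). There Gstp1 was at 95.5 CPM in urothelial-like and 73.1 CPM in fibroblast-like cells. The part of the gene list in the low nuclei level was not tested. Urothelial-like cells of the whole-bladder libraries held Gstp1 at 558.4 to 1036 CPM in 4 libraries and 24.4 CPM in the 22-month male one. Without that library Gstp1 was lower by -6.89 (adjusted p = 0.0058) and Gpx4 by -3.19 (adjusted p = 0.0084). Against the 12-month cell libraries alone the log2 difference was -6.95 for Gstp1 and -3.27 for Gpx4. Against the 3 mixed-sex cell libraries alone, a choice made after seeing the data, it was -7.11 for Gstp1 and -3.34 for Gpx4. Scaling by library size alone moved the median of all genes to 1.12 and the share of calls that were higher from 45.6% to 89.6%; all 9 differences stayed below 0 (from -5.24 to -1.67), and Gpx1 lost its call (adjusted p = 0.0701).

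In fibroblast-like nuclei, where 24% of 12385 genes were called (8.35% higher and 15.6% lower), Gpx3 (-5.50), Gpx1 (-3.93), Gstm2 (-3.64) and Gstm1 (-1.54) were lower. Gpx3 stood at 68.0 CPM (45.5 to 97.6) there, against 623 CPM in the lowest cell library, and Gpx1 at 91.4 CPM (65.0 to 125) against 486.7 CPM. The edgeR adjusted p was 0.0081 for Gpx1 and Gstm2, 0.0289 for Gpx3 and 0.0459 for Gstm1, and the Gstm1 call was lost in 8 of 14 alternatives. These 4 genes and Gstp1 lay below all cell libraries and Gpx2 above them, from 4 UMIs, and 73.3% of genes lay outside. Not called were Gstp1 (-5.80, adjusted p = 0.138), Gpx4 (-2.39, 0.11), Gsto1 (-1.38, 0.128), Gsta4 (-0.69, 0.432) and Gpx2 (-0.12, 0.946). Against the 12-month cell libraries alone edgeR called Gstp1 (-6.00, adjusted p = 5.65e-07), Gpx4 (-2.59, 1.06e-05), Gsto1 (-1.61, 0.0011) and Gsta4 (-0.84, 0.0248) lower, and against the 3 mixed-sex libraries the same 4 genes (adjusted p from 2.17e-05 to 0.0121). These settings called 4107 of 9792 and 4814 of about 11030 genes tested. In CPM, before TMM scaling, Gsta4 was at 518.1 CPM in these nuclei, among the mixed-sex cell libraries (608.7, 441.9 and 528.5 CPM). Gstp1 and Gpx4 were also called with DESeq2 (adjusted p = 0.0108 and 0.0228) and without the 22-month male library (-6.04 and -2.57, adjusted p = 0.0168 and 0.0316). In these nuclei Gsta4 and Gstm1 stood at 23.8% and 25.7% of their urothelial levels and the uroplakins at 23.8%. Library size alone moved the median of all genes from -0.32 to 0.57 and the share of calls that were higher from 34.8% to 84.7%. It turned Gsta4 to 0.26 and Gpx2 to 0.82, neither of them called, so the direction of both depends on the scaling. Of the other listed genes 41 of 71 were lower in urothelial-like nuclei and 26 of 70 in fibroblast-like nuclei, and none was higher. Over all genes 19.1% were lower and 16% higher in urothelial-like nuclei, and 15.6% and 8.35% in fibroblast-like nuclei. Among the listed genes that fell were Mgst3 (-3.84) in urothelial-like nuclei, Gpx7 (-4.03) in fibroblast-like nuclei and the ferritin light chain Ftl1 in both (-4.13 and -4.10).

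**Figure D3:**
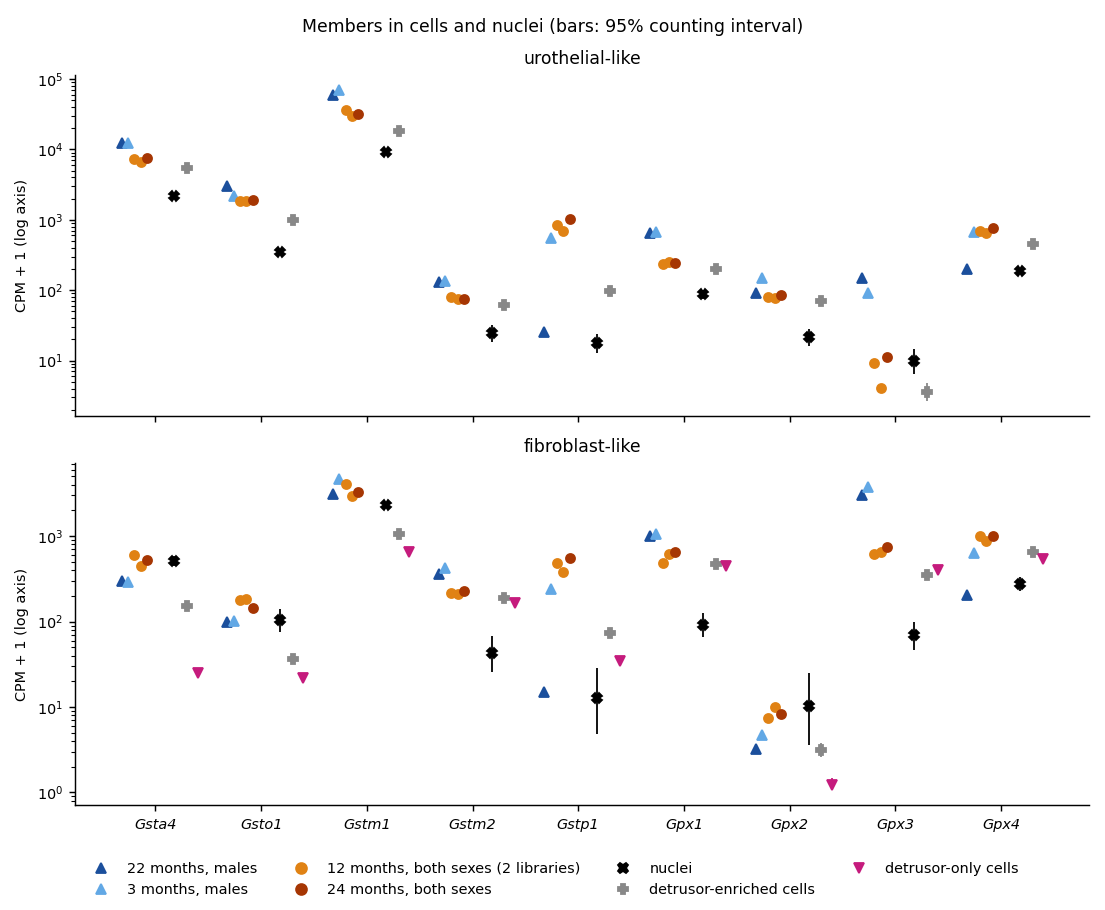
Level of each gene (CPM + 1, log axis) in urothelial-like and fibroblast-like cells and nuclei; each point is 1 library, and bars on nuclei and detrusor libraries are 95% counting intervals. The nuclei lie below all cell libraries in urothelial-like cells except for Gpx3, whose nuclei level of 8.79 CPM falls among the cell libraries.

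In the sections, spots were grouped by the share of counts from the urothelial, smooth muscle and fibroblast markers (the top 20% by each list, with spots in more than 1 group left out). A spot covers several cells, so levels are those of a small region. Urothelium-high spots held medians of 33647 to 59027 UMIs, and the others 11159 to 17751. Section order below is the 2 of 22 months, then the 2 of 14 months.

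Gstm1 was at 21470, 19250, 17670 and 16950 CPM in urothelium-high spots, at 12910, 12080, 7247 and 6320 CPM in fibroblast-high spots and at 4160, 4063, 4263 and 2398 CPM in muscle-high spots. It ranked 1 or 2 among all genes in each whole section, with 1.07% to 1.54% of the UMIs. The log2 difference between urothelium-high and muscle-high spots was 2.25 (SE 0.15, n = 4 sections, edgeR adjusted p = 2.57e-10), where 72.8% of 12310 genes were called (37.7% higher and 35.1% lower). Gsta4 (2.51), Gsto1 (2.48) and Gpx2 (1.49) were also higher, and Gpx3 (-2.90), Gpx1 (-1.29) and Gpx4 (-0.77) lower. The 2 kinds of spots did not overlap for any of these 7 genes, as was so for 64.4% of genes. Scaling by library size alone moved the median of all genes from 0.06 to 0.18.

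Gpx3 was at 94.2, 91.5, 135.6 and 134.1 CPM in urothelium-high, 459.6, 274.6, 1068 and 877.6 CPM in fibroblast-high and 561.3, 598.2, 1018 and 999.9 CPM in muscle-high spots. Against fibroblast-high spots it was lower by -2.37 (SE 0.25, edgeR adjusted p = 0.00025), where 59.1% of 12556 genes were called (27.6% higher and 31.5% lower). In that comparison Gstm1 (1.06), Gsta4 (0.97), Gsto1 (0.88) and Gpx2 (0.55) were higher, and Gpx1 (-0.70), Gstm2 (-0.52) and Gpx4 (-0.32) lower. The Gpx4 call was lost without the first section of 14 months (-0.27, adjusted p = 0.0611) and with the top 10% of spots by each list (-0.28, adjusted p = 0.0554), and the Gpx2 call without the section block (0.53, adjusted p = 0.0542). Gstm2 was at 115.3, 113.5, 100.6 and 122.9 CPM in urothelium-high and 169.7, 169.6, 141 and 186.2 CPM in fibroblast-high spots, without overlap, and 46.8% of genes did not overlap here; its muscle-high spots (105.5 to 136.7 CPM) overlapped the urothelium-high ones. Gstp1, at 68.5 to 150.3 CPM in urothelium-high spots, passed neither test (log2 differences -0.13 and 0.12).

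Across the single spots of a section Gstm1 followed the share of urothelial markers with Spearman's rho of 0.908 to 0.961, Gsta4 with 0.864 to 0.920 and Gsto1 with 0.706 to 0.812. Gpx3 ran the other way, at -0.676 to -0.551. Spots of 1 section share a slide and their depth varies with the tissue, so these values describe 937 to 1317 spots a section and carry no p. Of the other listed genes 45 of 68 were higher and 15 lower in urothelium-high than in muscle-high spots, against 37.7% and 35.1% of all genes. Among the higher were Mgst2 (2.84), Gstt3 (2.24) and Nqo1 (2.23), and among the lower Gstm5 (-2.92), Gstt1 (-2.74) and Gpx7 (-2.47). Against fibroblast-high spots 41 of 70 were higher, including Gclc, the rate-limiting enzyme of glutathione synthesis (1.15), and 11 lower, including Anpep (-2.26). Over all genes 27.6% were higher and 31.5% lower there.

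**Figure D4:**
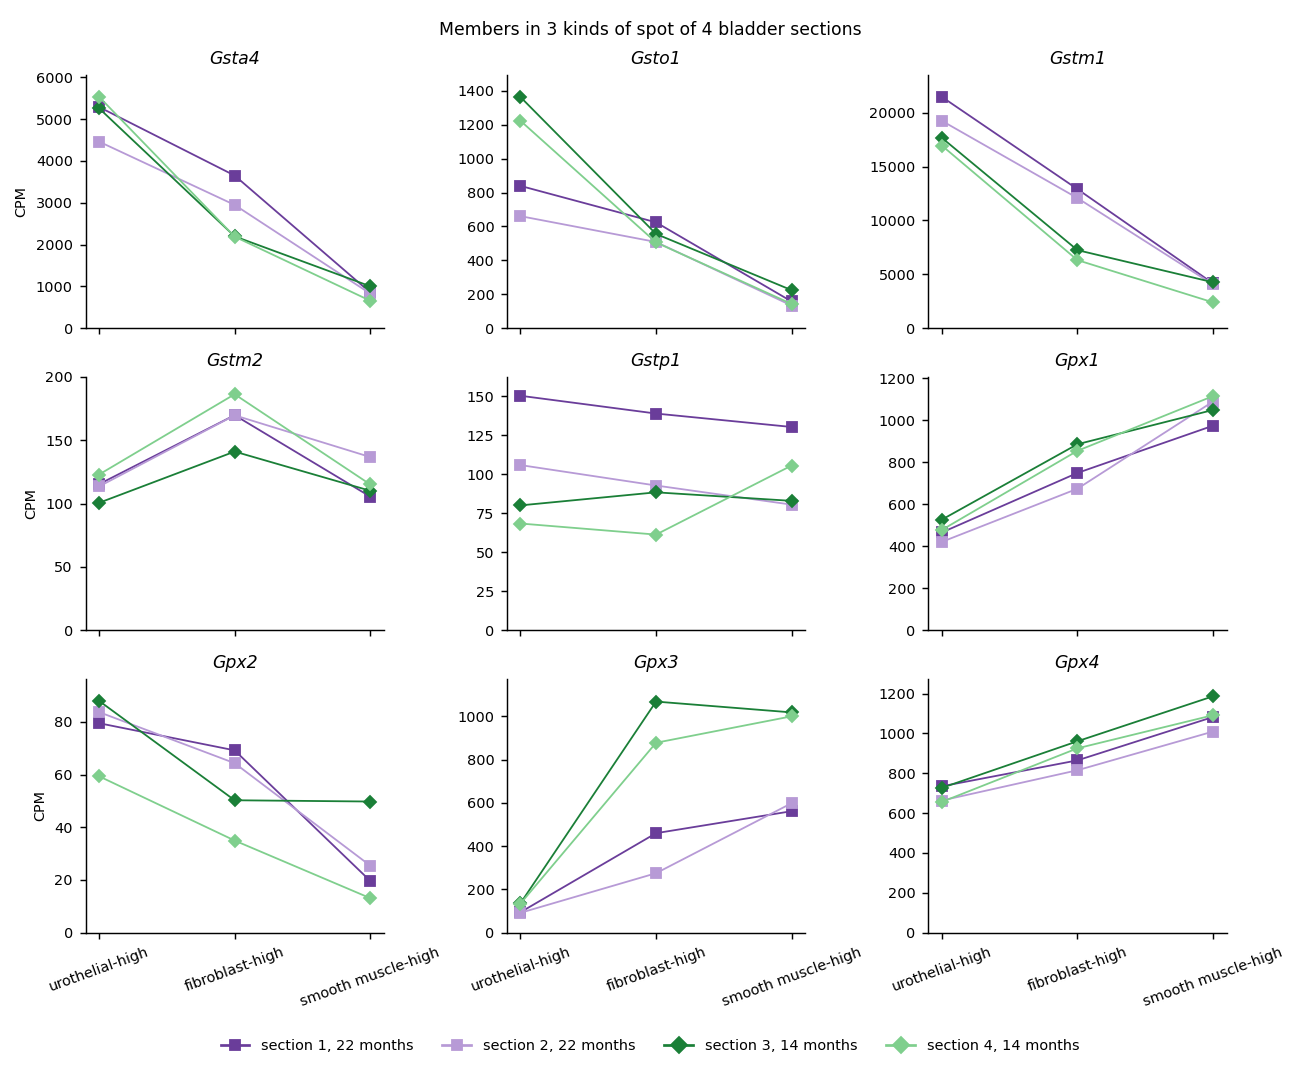
Level of each gene (CPM, axis from 0) in urothelium-high, fibroblast-high and muscle-high spots; each line joins the 3 kinds of spots of 1 section, coloured by age. In every section Gsta4, Gsto1, Gstm1 and Gpx2 are lower in muscle-high than in urothelium-high spots, and Gpx1, Gpx3 and Gpx4 are higher. Gpx3 is highest in fibroblast-high spots in the first section of 14 months (1068 against 1018 CPM in muscle-high spots).

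Sections of 22 months were set against sections of 14 months as a comparison of age, with 2 sections each. The mix of tissue in a slice also enters whole-section levels. The top 20% of spots began at a smooth muscle marker share of 6.62% and 7.77% at 22 months, against 6.00% and 4.68% at 14 months. For fibroblast markers it was 0.60% and 0.69% against 0.62% and 1.04%, and for urothelial markers 1.25% and 1.47% against 1.28% and 1.29%. The part of this mix was not tested. With edgeR none of the 14321 genes tested was called (0%), 2359 had an unadjusted p under 0.05, and DESeq2 called 410. Whole-section Gpx3 was at 323.2 and 242.1 CPM at 22 months and at 526 and 477 CPM at 14 months (log2 difference -0.77, SE 0.14, edgeR adjusted p = 0.116). With edgeR it was called lower without a filter on low counts (-0.77, adjusted p = 0.0337) and without the first section of 22 months (-0.95, adjusted p = 0.029), where the lone section left at that age is assumed to vary like the others. Gsto1 was at 624.1 and 521.7 CPM against 864.7 and 764.6 CPM (-0.45, adjusted p = 0.198). Gstm1 was at 15410 and 14240 CPM against 11740 and 10740 CPM (0.46, adjusted p = 0.256), and Gstp1 at 149.4 and 98.8 CPM against 83.8 and 76.2 CPM (0.69, adjusted p = 0.209). The ages did not overlap for these 4 genes and Gpx1, nor for 51.2% of all genes, and DESeq2 called the same 4 genes (adjusted p from 0.00012 to 0.0344).

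Bulk RNA of dissociated bladders was compared with that of intact bladders. In bulk, fewer cells of a type and less RNA per cell cannot be told apart. Of 16538 genes tested 59.2% were called (27.9% higher and 31.3% lower in dissociated bladders), and of the 9 genes 3 were higher and none lower, with a median log2 difference of 0.19 against -0.03 over all genes.

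Gsto1 was at 333.6, 296.1 and 325.3 CPM in intact bladders and at 478, 626 and 898.3 CPM in dissociated ones, a log2 difference of 1.18 (SE 0.22, n = 3 against 3, edgeR adjusted p = 0.0026). Gpx3 was at 126.4, 109.9 and 140.4 CPM against 225.1, 214.8 and 156.8 CPM (0.77, SE 0.15, edgeR adjusted p = 0.0029). Gstm2 was at 82.2, 69.4 and 82.9 CPM against 107.3, 100.7 and 106.6 CPM (0.54, SE 0.094, edgeR adjusted p = 0.0019). None of the 3 overlapped between the groups, as was the case for 67.9% of genes. The third dissociated library was the highest for Gsto1 and the lowest of its group for Gpx3, and without it the Gsto1 difference was 0.89 (adjusted p = 0.0010).

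Gstm1 was at 8368, 7133 and 7724 CPM in intact and at 5463, 4918 and 6971 CPM in dissociated bladders. The groups did not overlap, and the difference of -0.31 (SE 0.16) did not pass (edgeR adjusted p = 0.123). Gstp1, at 86.3, 76.6 and 85.8 CPM against 65.4, 65.2 and 76.5 CPM, likewise did not pass (-0.15, adjusted p = 0.223). With library size alone, which moved the median of all genes from -0.03 to -0.14 and the share of calls that were higher from 47.2% to 38.3%, both were called lower (-0.42 and -0.26, adjusted p = 0.0363 and 0.0386), as they were without the third dissociated library (-0.48 and -0.24). Gpx1 (0.25, adjusted p = 0.0526), Gpx4 (0.19), Gsta4 (0.07) and Gpx2 (0.06) did not pass. Gpx1 was called higher with DESeq2 (0.30, adjusted p = 0.0164), with edgeR's RLE size factors (adjusted p = 0.0349), with the replicate block (adjusted p = 0.0279), without the third intact library (0.33, adjusted p = 0.0293) and without the second dissociated one (0.32, adjusted p = 0.041). Without that second dissociated library Gpx4 was called too (0.30, adjusted p = 0.0377).

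Marker sums moved beside these genes. The 10 smooth muscle markers fell, all 10 called lower, from 43300 to 45120 CPM in intact to 2313 to 3518 CPM in dissociated libraries. The 10 fibroblast markers rose, all 10 called higher, from 12290 to 14960 CPM to 22090 to 32630 CPM. The 10 urothelial markers, of which 3 were called higher and 4 lower, spanned 6037 to 6952 CPM and 4973 to 7367 CPM, and no marker of these 3 lists was at 0 in any library. Macrophage markers were higher too, 9 of 10 called, at 856.3 to 959.3 CPM in intact and 1024 to 1399 CPM in dissociated libraries, as were 6 of 8 blood endothelial, 5 of 5 lymphatic endothelial and 5 of 5 erythroid markers tested, while 5 of 5 adipocyte markers were lower. The part of these shifts in the values of Gsto1, Gpx3 and Gstm2 was not tested.

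Of the other listed genes 77 were tested, of which 23 were higher and 21 lower in dissociated bladders, shares near those over all genes (27.9% and 31.3%), with a median of -0.01. Among genes called at 10 CPM or more, the furthest higher were Hmox1 (2.37), the thioredoxin reductase Txnrd1 (1.42) and Anpep (1.1). The furthest lower were Txnip, an inhibitor of thioredoxin (-1.57), Pstk, an enzyme of selenocysteine synthesis (-1.33), and Keap1, the sensor that holds Nrf2 in check (-0.87).

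**Figure D5:**
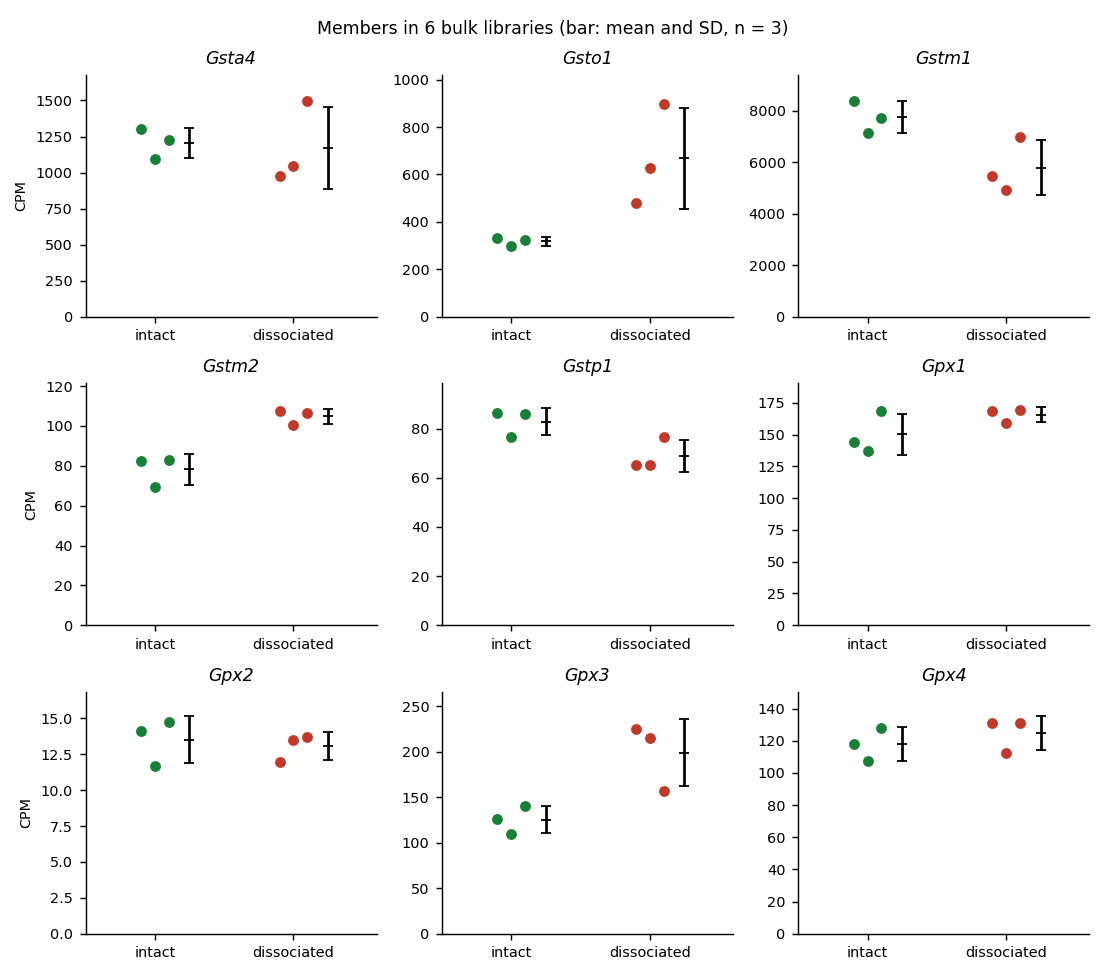
CPM of each gene in the 3 intact (green) and 3 dissociated (red) bulk libraries, axes from 0, with the mean and SD as bars. Gsto1, Gstm2 and Gpx3 are higher in all 3 dissociated libraries. Gstm1 and Gstp1 lie lower without overlap but did not pass the test. Of all genes 67.9% did not overlap between the groups.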

How the data were processed

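Droplet libraries of cells and of nuclei, Visium sections and bulk RNA were deposited by the authors as raw counts: UMI counts per barcode or spot in 12 tables and read counts per gene in 6 bulk libraries. Per the submitters' processing notes, Cell Ranger, Space Ranger, bcl2fastq, Subread and featureCounts were used with build mm10; settings and the counting of strand are not given in the sources used here. The 9 genes and all lists were chosen with earlier results of these data known. The tables listed 27775 genes (male cell libraries), 27998 (mixed-sex) or 31053 (others), and 26344 shared genes without mitochondrial ones were used.

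Barcodes below 500 UMIs or above 20% mitochondrial UMIs were dropped, then the barcodes scoring most like simulated doublets (0.8% per 1000 barcodes), which left 949 to 8420 a library. Cells were clustered (2000 variable genes, 30 components, 15 neighbours, Leiden resolution 1, leidenalg 0.10.2, scipy 1.17.1, Python 3.11.15) without any glutathione gene of the lists, and clusters were named from marker lists. Counts were summed per library and class of at least 20 cells and tested with edgeR 4.0.16 (TMM, quasi-likelihood, two-sided, R 4.3.3), adjusted by Benjamini-Hochberg over all genes tested at 0.05. The library was a block in comparisons within a library. DESeq2 1.42.0, other scalings, no filter, libraries left out, libraries of one sex group, and other cell filters were tried. Scripts were tested on simulated data. Listed genes of the glutathione system were named where called at 10 CPM or more and among the 3 furthest in each direction; Gpx8 in urothelial-like cells was named after its value was seen. Intervals are exact 95% Poisson intervals. The replicate numbers of the bulk groups were not used as pairs in the main test, since the labels do not say that they mark shared animals. Correlations of same-numbered deviations were 0.20, 0.34 and -0.07, and so few libraries cannot decide whether the numbers pair them.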

Additional observations from a re-analysis of the deposited data

Results flagged for a closer look

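The gap between urothelial-like and fibroblast-like cells differed between the 2 male and the 3 mixed-sex cell libraries for 4 of the 9 genes by a test of the difference itself, which called 4.34% of 11476 genes. This test was added after the values were seen. The log2 gap was wider in the male libraries by 1.47 for Gpx2 (SE 0.27, edgeR adjusted p = 0.0172), 1.22 for Gsta4 (SE 0.11, adjusted p = 0.00041), 0.82 for Gsto1 (SE 0.16, adjusted p = 0.0218) and 0.44 for Gstm1 (SE 0.098, adjusted p = 0.0344). The plain log2 ratios were 5.38 and 3.78 for Gsta4, male first. Beside this, the uroplakin level in fibroblast-like cells was 1.88% and 1.89% of the urothelial level in the male and 6.86% to 8.22% in the mixed-sex libraries; its part in the difference was not tested. Sex, depth and the counted gene list cannot be told apart between these libraries. Age did not follow the same split. The log2 ratio of Gsta4 was 5.37 and 5.39 in males of 22 and 3 months. In the mixed-sex libraries it was 3.60 and 3.92 at 12 months and 3.83 at 24 months. The part of age was not tested.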

How the results depend on the processing

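Of 1071 values of the 9 genes under alternative settings, 947 kept their direction and side of the threshold, 50 lost and 43 gained a call, and 31 changed sign. Of 123 counts of called genes, 115 stayed within 1.5 times. The others were, for nuclei against the mixed-sex cell libraries alone (chosen after seeing the data), 7409 genes in urothelial-like and 4814 in fibroblast-like nuclei, and, for sections by age, 410 with DESeq2, 36 with library size alone, 212 without a filter and 0 to 277 with 1 section left out.

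Apart from Gsta4 in macrophage-like cells, the values that changed sign had not passed the test over all libraries, and 1 of them passed after the change (Gstm1 in blood-endothelial-like cells of mixed-sex libraries, edgeR adjusted p = 9.14e-06). In bulk, Gsta4 gave -0.042 and Gpx2 -0.047 with library size alone. With 1 library left out Gsta4 ranged from -0.16 (without dissociated replicate 3) to 0.20, with -0.0031 without intact replicate 2, and Gpx2 from -0.044 (without intact replicate 2) to 0.13. Between urothelial-like and fibroblast-like cells Gpx4 gave -0.26 with library size alone, -0.0017 without the 3-month male library, up to 0.14 with another left out, and -0.054 in mixed-sex libraries. In macrophage-like cells Gsta4 gave -0.016 with library size alone. In blood-endothelial-like cells Gsto1 gave -0.53 in the male libraries, the same as with at least 50 cells a class. Gstm1 there gave 0.056 with library size alone, 0.34 without the block, 0.33 without the 22-month and 0.35 without the 3-month male library, 1.06 in mixed-sex libraries, 0.26 with doublets kept and 0.29 from 1000 UMIs, and Gpx1 0.025 in mixed-sex libraries. In fibroblast-like nuclei Gsta4 gave 0.26 with library size alone. Gpx2 there gave 0.068 with DESeq2, 0.10 with RLE size factors, 0.82 with library size alone, 0.087 without the second 12-month and 0.049 without the 24-month library (down to -0.30 with another left out), 0.48 with doublets kept and 0.88 from 1000 UMIs. In spots Gstp1 ranged from -0.25 to 0.044 (without section 4) with 1 section left out (urothelium-high against muscle-high). By age Gpx4 gave -0.0497 with library size alone, -0.047 without section 1, -0.03 without section 4 and up to 0.064 otherwise. The cause of these changes was not tested.

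The replicate block in bulk gave 10011 called genes against 9798, and with it Gpx1 was called (0.26, edgeR adjusted p = 0.0279). Fits without the replicate block called 6209 genes for urothelial-like, 2872 for macrophage-like and 2070 for blood-endothelial-like cells against fibroblast-like cells, and 8599 and 6556 for spots against muscle-high and fibroblast-high ones. The second 12-month library had no blood-endothelial-like class, so leaving it out of that comparison gave no value. Low depth limits the nuclei, where 4 to 5 UMIs stand behind Gpx2 and Gstp1 in fibroblast-like nuclei.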

Other observations

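Other members of both families were measured in the same classes. The membrane-bound transferase Mgst1 was at 2841, 3705, 1896, 1388 and 1705 CPM in urothelial-like cells (22-month male, 3-month male, first and second 12-month, 24-month) and at 882, 974.6, 564.3, 448.6 and 469.3 CPM in fibroblast-like cells. Mgst3 was at 2653, 3278, 1431, 1183 and 1346 CPM in urothelial-like cells. In fibroblast-like cells Mgst3 was at 85.1, 113.1, 177.6, 76.3 and 127.6 CPM. Gpx8 was at 111.3, 101.5, 54.3, 43.7 and 49.7 CPM in urothelial-like and 393.7, 338.1, 221.2, 201.9 and 214 CPM in fibroblast-like cells. For Gpx5 and Gpx6 no UMI was counted in either class of these 5 libraries.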
